A study of Mus musculus with 12 samples.

Results

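The nuclear genes for the subunits of the mitochondrial respiratory chain were followed in whole retina of 5xFAD and wild-type (WT) mice at 2 ages. Members were the protein-coding genes of the GENCODE M21 annotation whose symbols start with Nduf (without the Ndufaf assembly factors), Uqcr, Cox4 to Cox8 or Atp5, plus Sdha, Sdhb, Sdhc and Sdhd. They were 86 gene identifiers with 85 symbols, of 55487 genes in the table: 38 of complex I, 4 of complex II, 8 of complex III, 18 of complex IV and 18 of complex V. The groups were 5xFAD at 1 month, WT at 1 month, 5xFAD at 6 months and WT at 6 months, with 3 libraries each and 12 in all. The labels give the strain of the 5xFAD mice as Tg6799 and that of the WT mice as C57BL/6J. 5xFAD mice carry human transgenes under the neuronal Thy1 promoter and are used as a model of amyloid deposition. The labels do not say whether the WT mice were littermates, or whether the libraries of a group came from separate animals, so p-values here measure the spread between libraries, which may be technical. The tables hold mouse genes, so the human transgenes were not measured.

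The respiratory chain passes electrons from NADH (complex I) and succinate (complex II) through complex III to oxygen at complex IV, and complex V uses the resulting proton gradient to make ATP. Most subunits are encoded in the nucleus, while the mitochondrial genome encodes a core of complexes I, III, IV and V. Photoreceptors pack mitochondria into their inner segments, and the retina is known for a high oxygen demand. The messenger RNAs of most small subunits are short.

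Libraries held 10928031 to 19552537 expected counts, that is, reads assigned to genes by an estimate that may split a read between genes. Levels are given as CPM, that is, counts scaled to a common library total (TMM-scaled). The 9 rod markers were all present. Their sum at 1 month was 57000 to 61200 CPM in 5xFAD retina, against 51200 to 54300 CPM in WT retina, and at 6 months 56100 to 59700 CPM in 5xFAD retina, against 47100 to 50400 CPM in WT retina. Library composition differed between groups. Genes in the shortest of 3 equal groups by transcript length (164 to 2061 nt) took 21.1 ± 0.265% of counts in 5xFAD libraries and 28.3 ± 2.18% in WT libraries at 1 month (SD, n = 3). At 6 months they took 29.1 ± 0.961% in 5xFAD libraries and 26.1 ± 2.25% in WT libraries. Of the 81 tested members, 76 (93.8%) lay in that group, and their median transcript length was 775 nt, against 2746 nt over all 16233 genes tested.

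Read per transcript length, the members ranged widely. On a per-length scale (TPM, mean of 12 libraries), Atp5b, the catalytic beta subunit of ATP synthase, was highest at 1260 and led complex V. Ndufa4, named for complex I but since placed at complex IV, followed at 860. Cox4i1, the ubiquitous form of a regulatory subunit of cytochrome c oxidase, led complex IV at 639, Uqcrh, a hinge protein of complex III, led its complex at 495, and Sdha, the flavoprotein of succinate dehydrogenase, led complex II at 269. The lowest tested members of each complex were Ndufa4l2 at 2.30, Sdhc at 65.7, Uqcrfs1 at 123, Cox7a1 at 9.86 and Atp5s at 19.4. Some subunits have a second form known from lung, muscle or testis. At 1 month Cox4i1 made up 91.5% of its pair with Cox4i2 in 5xFAD retina and 93.0% in WT retina. At 6 months it made up 93.8% in 5xFAD retina and 89.4% in WT retina. Cox6b1 made up 94.5 to 94.9% of its pair with the testis form Cox6b2. The muscle forms Cox6a2 and Cox8b held at most 2 and 7 counts in any library, and Cox7b2 and Cox8c held 0 counts in every library. These 4 genes, together with a second Atp5o identifier at 0 counts in every library, did not pass the filter on low counts and were not tested.

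**Figure D1:**
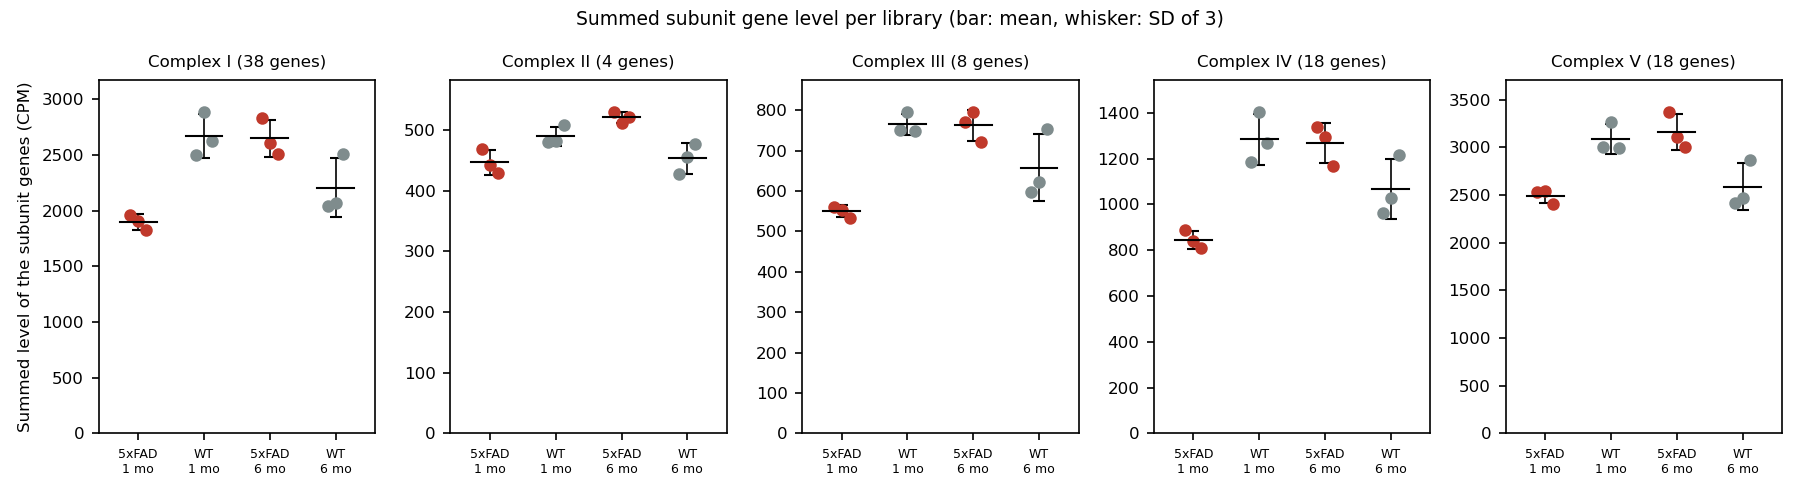
Summed level (CPM, from 0) of the subunit genes of each complex in every library; points are libraries, bars and whiskers are the mean and SD of 3, 5xFAD in red and WT in grey. At 1 month the 3 5xFAD libraries lie below the 3 WT libraries in each of the 5 complexes; at 6 months they lie above them in complex II and V, and overlap WT replicate 3 in complexes I, III and IV.

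At 1 month most subunit genes were lower in 5xFAD than in WT retina. The summed level of all members was 6413, 6292 and 6008 CPM in the 5xFAD libraries and 7917, 8837 and 8141 CPM in the WT libraries. Of 81 tested members, 62 were lower and 0 higher by edgeR's quasi-likelihood test with Benjamini-Hochberg adjustment over all genes (adjusted p below 0.05). Over all genes tested, 8.91% were called lower and 10.7% higher. At an unadjusted p under 0.05, 69 members were lower and 0 higher, against 5276 of all 16233 genes in either direction. DESeq2 called 63 members lower and 0 higher, against 1507 of all genes lower and 2034 higher. The median log2 fold change of the members was -0.53, and that of all genes was -0.04. In 68 members all 5xFAD libraries lay below all WT libraries, which held for 18.9% of all genes.

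In complex I, which takes electrons from NADH, 28 of 38 members fell. Ndufa4, counted here by its symbol though since placed at complex IV, stood at 156, 156 and 145 CPM in 5xFAD. In WT it stood at 233, 257 and 240 CPM. The groups did not overlap, and the log2 fold change was -0.68 ± 0.0938 (SE; edgeR adjusted p = 2.98e-05). Ndufa1, a membrane-arm subunit needed for assembly, held 23.1, 19.1 and 17.6 CPM in 5xFAD, against 36.5, 51.7 and 31.9 CPM in WT. It fell by 1.00 on the log2 scale (SE 0.177, edgeR adjusted p = 0.000325). The accessory subunits Ndufb3 and Ndufa3 followed, with log2 fold changes of -0.79 ± 0.14 and -0.96 ± 0.171 (SE). Core subunits carry the flavin and iron-sulphur clusters or the quinone site. Among them Ndufv2 (-0.67), Ndufs7 (-0.67), Ndufs8 (-0.45) and Ndufv1 (-0.43) fell. Ndufs1, the largest core subunit, stood at 109, 108 and 101 CPM in 5xFAD and 103, 92.4 and 115 CPM in WT, and the groups overlapped (log2 fold change 0.03 ± 0.116). Ndufs3 gave -0.31 and did not pass (edgeR adjusted p = 0.0565). The other members that were not called were Ndufa9, Ndufa10, Ndufa11, Ndufa4l2, Ndufb2, Ndufb5, Ndufb7 and Ndufv3, with log2 fold changes between -0.45 and 0.00.

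In complex II, 3 of 4 members fell. Sdhc, which anchors the enzyme in the membrane, stood at 53.9, 52.5 and 53.8 CPM in 5xFAD, against 73.5, 82.0 and 68.9 CPM in WT (log2 fold change -0.49 ± 0.125, edgeR adjusted p = 0.00761). Sdhd, the other anchor, gave -0.43, and the iron-sulphur subunit Sdhb gave -0.38. Sdha stood at 340, 306 and 307 CPM in 5xFAD and 311, 297 and 337 CPM in WT, with a log2 fold change of 0.01 ± 0.0835. In complex III, which hands electrons to cytochrome c, 8 of 8 members fell. The small subunit Uqcr10 held 27.3, 30.0 and 26.5 CPM in 5xFAD, against 40.4, 45.8 and 55.7 CPM in WT. The Rieske iron-sulphur protein Uqcrfs1 held 52.6, 63.7 and 56.9 CPM in 5xFAD, against 83.0, 89.1 and 85.5 CPM in WT, and fell by 0.57 (SE 0.118, edgeR adjusted p = 0.00126). Uqcrh and Uqcrb, further small subunits, fell by 0.59 and 0.51. The large core proteins Uqcrc1 and Uqcrc2 changed least there, with -0.37 and -0.30.

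In complex IV, cytochrome c oxidase, 11 of 14 tested members fell. Cox7a2, the ubiquitous form of a small subunit, held 53.1, 51.8 and 41.5 CPM in 5xFAD, against 84.5, 97.1 and 81.1 CPM in WT (log2 fold change -0.84 ± 0.125, edgeR adjusted p = 6.34e-05). Cox4i1 held 158, 158 and 144 CPM in 5xFAD, against 219, 280 and 232 CPM in WT, and fell by 0.67. Cox5a and Cox5b, the other large nuclear subunits, fell by 0.63 and 0.49, and Cox7c and Cox6c fell by 0.77 and 0.65. Cox7a2l, related to Cox7a2 and known for joining complexes III and IV in supercomplexes, fell by 0.49. Cox4i2 (-0.35), Cox6b2 (-0.51) and the muscle form Cox7a1 (-1.57, SE 0.703) did not pass. In complex V, 12 of 17 tested members fell. Atp5g3, which encodes the membrane ring subunit c, held 124, 125 and 123 CPM in 5xFAD, against 197, 219 and 199 CPM in WT. Its log2 fold change was -0.72 ± 0.0992 (edgeR adjusted p = 2.66e-05). Atp5j, Atp5e and Atp5h, coupling factor and stalk subunits, fell by 0.70, 0.76 and 0.59. The catalytic head was split: the gamma subunit Atp5c1 fell by 0.41, while the alpha and beta subunits Atp5a1 and Atp5b gave -0.03 ± 0.0811 and -0.15 ± 0.0839. Atp5d, Atp5l and Atp5g2 also did not pass.

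**Figure D2:**
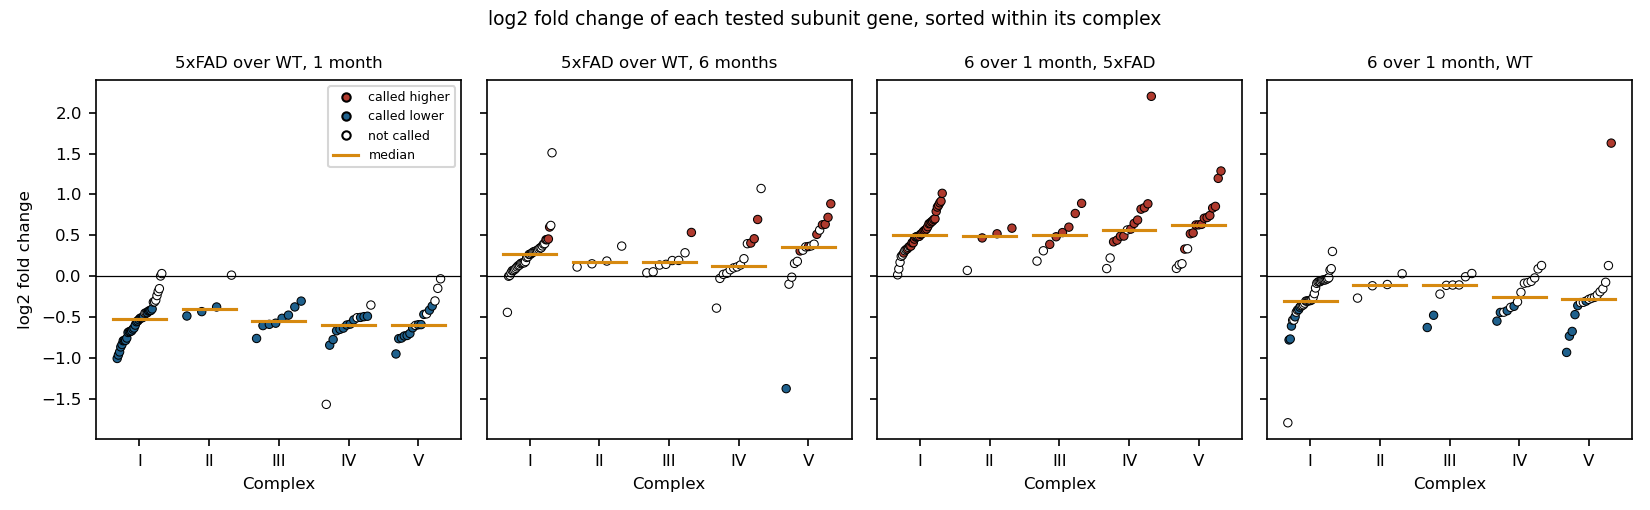
log2 fold change of each tested subunit gene in 4 comparisons, sorted within its complex; filled points passed an adjusted p of 0.05 (red higher, blue lower), and orange lines are medians. The 1-month genotype panel and the 5xFAD age panel lie on opposite sides of 0; both hold the same 3 5xFAD libraries of 1 month.

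The size of the 1-month difference followed transcript length. Across the 81 members, which share their libraries, Spearman's rho between log2 fold change and length was 0.604, as a description. The 76 short members had a median of -0.56 and 61 of them fell. All genes of that length group had a median of -0.32, with 18.3% called lower. Among the 5 longer members, Ndufs1, Sdha, Atp5a1 and Ndufb2 gave 0.03, 0.01, -0.03 and 0.00, and Sdhc was the member that fell. When each library's smooth trend of level on transcript length and GC content was taken out before the fit, 18 members were lower and 0 higher, against 6.87% of all genes lower and 4.63% higher. The members' median was then -0.21, and that of all genes -0.05. The 18 were Ndufa1, Ndufa3, Ndufa4, Ndufa5, Ndufa13, Ndufb3, Ndufc1 and Ndufv2 of complex I, Sdhc of complex II, Uqcrfs1 of complex III, Cox4i1, Cox6c, Cox7a2 and Cox7c of complex IV, and Atp5g3, Atp5j, Atp5mpl and Atp5s of complex V. Composition by length differed between the genotypes at 1 month, and that fit takes out only a smooth trend within each library. Composition and genotype at 1 month therefore cannot be told apart for any of the 81 members, the 18 included.

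**Figure D3:**
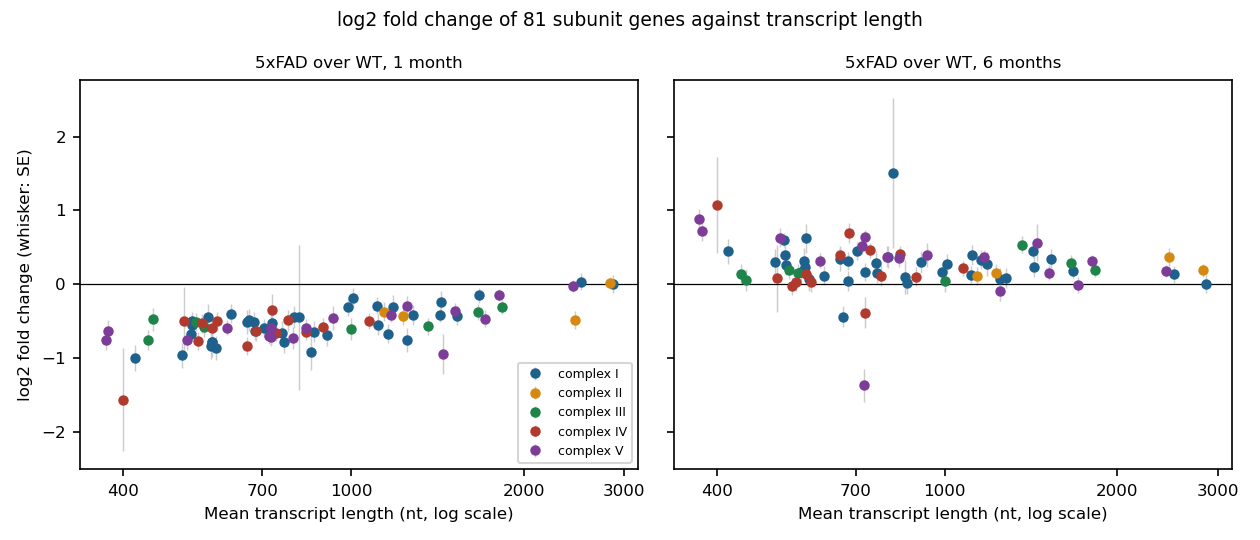
log2 fold change (whisker, SE) of the 81 tested subunit genes against mean transcript length in nt on a log axis, coloured by complex. At 1 month the genes near 400 to 700 nt lie mostly between -0.5 and -1, and 4 of the 5 beyond 2061 nt lie near 0; at 6 months no such slope is seen (Spearman's rho -0.14).

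Markers of cell types moved with the 1-month comparison. The cone list (6 genes) summed to 1060 to 1250 CPM in 5xFAD and 1290 to 1540 CPM in WT, with 2 of 6 lower. Of the 9 rod markers, 3 were higher and 0 lower by edgeR. The pigment epithelium list (7 genes) summed to 24.9 to 35.6 CPM in 5xFAD and 69.9 to 146 CPM in WT, with 4 of 6 tested genes lower. The endothelium list (4 genes) summed to 190 to 205 CPM in 5xFAD and 117 to 131 CPM in WT, with 1 of 4 higher. The lens list (4 genes) summed to 5.38 to 52.4 CPM in 5xFAD and 0 to 0.27 CPM in WT, with its 1 tested gene higher. The bipolar cell list (5 genes) summed to 1170 to 1240 CPM in 5xFAD and 951 to 1080 CPM in WT, with 2 of 5 higher. The microglia list (5 genes) summed to 14.6 to 19.3 CPM in 5xFAD and 21.1 to 26.4 CPM in WT, with 0 of 5 called. The sums of the Muller glia, ganglion cell and amacrine cell lists (5 genes each) overlapped between the genotypes. Of these, the Muller glia list had 2 genes higher and 1 lower, the ganglion cell list 1 higher and 1 lower, and the amacrine cell list 1 higher. Their part in the result was not tested. In whole tissue, fewer cells of a type and less RNA per cell cannot be told apart.

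The promoters of the members held the motif letters of known regulators of respiratory genes. RefSeq promoters (GRCm38.p6, 250 bases before to 50 after the start) matched 68 of 86 members, as 67 genes. On either strand, the NRF1 letters (GCGCA, any base, then GCGC) stood in 25.4% of these and in 5.19% of all 27025 genes with a promoter in the table. The GABPA (ETS family) letters CCGGAAG stood in 23.9% of the members' genes and 9.93% of all, and the YY1 letters AAGATGGC in 13.4% and 3.19%. The general GC-box letters GGGCGG (SP1) stood in 40.3% of the members' genes and 38.2% of all. The TATA letters TATAAA stood in 10.4% and 15.7%, and the letters TAATCC, read by the photoreceptor factor CRX, in 8.96% and 8.14%. At 1 month 14 of 17 tested members with the NRF1 letters fell, and so did 36 of 48 without them. For each of the first 3 motifs, the promoter of the member with the smallest 1-month p among those not already shown is printed, as an example of members that moved together. Atp5g3 is at chr2:73911277-73911576 on the minus strand, Atp5j at chr16:84834927-84835226 on the minus strand and Ndufa3 at chr7:3617123-3617422 on the plus strand. Capitals mark the NRF1 letters in Atp5g3 (on the reverse strand), the YY1 and then the GABPA letters in Atp5j, and the SP1 and then the YY1 letters in Ndufa3. The promoter of Ndufa3 also holds the TATA letters, left in lower case.
Atp5g3: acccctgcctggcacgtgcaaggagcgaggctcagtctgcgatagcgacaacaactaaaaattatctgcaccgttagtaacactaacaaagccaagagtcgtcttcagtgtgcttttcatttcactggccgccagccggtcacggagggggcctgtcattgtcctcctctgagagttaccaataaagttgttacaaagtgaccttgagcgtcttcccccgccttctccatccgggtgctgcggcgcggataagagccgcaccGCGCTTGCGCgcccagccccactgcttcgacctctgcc
Atp5j: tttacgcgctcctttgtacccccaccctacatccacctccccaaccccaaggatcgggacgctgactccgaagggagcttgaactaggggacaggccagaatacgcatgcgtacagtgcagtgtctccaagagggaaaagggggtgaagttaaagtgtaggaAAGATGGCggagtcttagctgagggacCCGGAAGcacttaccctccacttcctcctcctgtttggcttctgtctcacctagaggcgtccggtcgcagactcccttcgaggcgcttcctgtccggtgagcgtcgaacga
Ndufa3: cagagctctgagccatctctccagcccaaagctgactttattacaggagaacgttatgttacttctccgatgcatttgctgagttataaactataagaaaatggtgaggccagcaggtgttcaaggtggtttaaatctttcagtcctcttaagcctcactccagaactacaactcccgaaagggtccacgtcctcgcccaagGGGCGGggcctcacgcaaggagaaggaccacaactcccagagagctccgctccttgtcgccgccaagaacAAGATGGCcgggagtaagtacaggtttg
A match is a stretch of letters, and no binding was measured here.

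At 6 months the direction differed. Of 81 members, 14 were higher and 1 lower in 5xFAD by the edgeR test, against 2.48% of all genes higher and 3.89% lower. At an unadjusted p under 0.05, 33 were higher and 2 lower, against 3394 of all 16233 genes in either direction. The members' median log2 fold change was 0.24, and that of all genes was 0.00. In 26 members all 5xFAD libraries lay above all WT libraries (11.4% of all genes did), and in 2 they lay below (12.8% of all genes). Summed levels were 8844, 8321 and 7923 CPM in 5xFAD and 6450, 6641 and 7833 CPM in WT, so WT replicate 3 came close to the 5xFAD libraries. The count moved with the WT libraries, and so did that of all genes. Over all genes, 403 were higher with all libraries, 522 without WT replicate 3, and 117 and 105 without WT replicates 1 and 2. Of the members, 27 were higher without WT replicate 3, and 6 without WT replicate 1 or without WT replicate 2. Without the 3 libraries richest in ribosomal RNA, of which 2 were of 5xFAD at 6 months, the members' median was 0.16. That of all genes was -0.03. That fit leaves 1 library of 5xFAD at 6 months, which is assumed to vary like those of the other groups. The 3 WT libraries of 6 months held 1.15 to 1.38% of their counts in pseudogenes, against 1.57 to 2.97% in the other 9 libraries, and their counts were divided differently between some genes and their copies (Atp5g2 is one). The cone list summed to 1450 to 1600 CPM in 5xFAD and 1120 to 1210 CPM in WT, with 3 of 6 higher, and 2 of the 9 rod markers were higher and 0 lower. The endothelium list summed to 76.7 to 90.3 CPM in 5xFAD and 108 to 146 CPM in WT, with 1 of 4 lower. The Muller glia list (5 genes) summed to 2660 to 2800 CPM in 5xFAD and 2930 to 3220 CPM in WT, with 1 of 5 lower. The bipolar cell list summed to 944 to 972 CPM in 5xFAD and 977 to 1190 CPM in WT, and the amacrine cell list (5 genes) to 739 to 843 CPM in 5xFAD and 848 to 942 CPM in WT, each with 1 of 5 lower. Neither the part of these lists nor that of the pseudogene share in the result was tested.

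Complex V held 7 of the 14. Atp5mpl, a small membrane subunit, stood at 83.3, 65.8 and 77.7 CPM in 5xFAD, against 36.7, 39.9 and 46.1 CPM in WT. The groups lay well apart, with a log2 fold change of 0.89 ± 0.134 (SE; edgeR adjusted p = 0.000352). Atp5g3 stood at 195, 201 and 179 CPM in 5xFAD, against 109, 120 and 142 CPM in WT, a log2 fold change of 0.64. Atp5k, subunit e of the membrane part, rose by 0.72, the epsilon subunit Atp5e by 0.63 and Atp5j by 0.51. Atp5c1 (0.36) and Atp5b (0.31) passed as well; Atp5b stood at 1113, 1034 and 921 CPM in 5xFAD, against 797, 787 and 891 CPM in WT. In complex IV, Cox5a, Cox4i1 and Cox6c rose. Cox5a stood at 110, 77.1 and 88.9 CPM in 5xFAD, against 49.5, 57.3 and 63.5 CPM in WT (log2 fold change 0.69 ± 0.139, edgeR adjusted p = 0.00395). Cox4i1 gave 0.46 and Cox6c 0.41. In complex I, 3 members rose, Ndufa4 (0.60 ± 0.0933, counted here by its symbol) and Ndufb9 (0.46 ± 0.122) among them. Ndufa4 stood at 225, 204 and 222 CPM in 5xFAD, against 127, 142 and 159 CPM in WT. Of the core subunits of complex I, the log2 fold changes were 0.35 (Ndufv1), 0.33 (Ndufv2), 0.37 (Ndufs8), 0.29 (Ndufs7), 0.16 (Ndufs3) and 0.14 (Ndufs1), and these did not pass. Just outside the threshold lay Ndufs5 (0.40, edgeR adjusted p = 0.051) and Cox7a2 (0.40, edgeR adjusted p = 0.0513). In complex III Uqcrfs1 rose by 0.54 (edgeR adjusted p = 0.00719), and in complex II none of the 4 members passed, with 2 at an unadjusted p under 0.05 and values of 0.11 to 0.37.

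All 14 lay in the shortest length group, of which 4.74% were called higher. When the length and GC trend was taken out, 19 members were higher and 2 lower, against 7.21% of all genes higher and 2.35% lower. That fit added Sdha, Sdhc, Uqcrc1, Ndufv1, Atp5a1 and Atp5d to the higher genes and Ndufa12 to the lower, and left out Ndufb9. The members' median was then 0.19, and that of all genes 0.09.

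The 1 lower member at 6 months was Atp5g2, another gene for subunit c of the ATP synthase ring. It stood at 22.0, 29.6 and 22.5 CPM in 5xFAD, against 60.0, 56.5 and 75.6 CPM in WT (log2 fold change -1.37 ± 0.222, edgeR adjusted p = 0.000938). Atp5g2 (chr15:102662864-102672352, minus strand, GRCm38) has a near-complete copy annotated as a transcribed processed pseudogene, Gm10175 (chr7, minus strand). The coding stretch of Atp5g2 and the matching Gm10175 transcript were equal over all 441 bases, with 0 mismatches. The whole 645-nt Gm10175 transcript was found without a difference in the 731-nt Atp5g2 transcript, so that 86 bases of Atp5g2 lay outside it. The first 60 coding bases, printed in lower case because no base differs, show the identity that a read cannot resolve.
Atp5g2: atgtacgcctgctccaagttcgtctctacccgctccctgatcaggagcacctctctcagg
Gm10175: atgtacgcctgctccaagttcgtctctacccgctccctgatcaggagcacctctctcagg
Gm10175 stood at 71.6, 66.3 and 60.6 CPM in 5xFAD, against 9.48, 11.4 and 12.9 CPM in WT at 6 months. At 1 month it stood at 51.1, 42.2 and 39.0 CPM in 5xFAD and 68.9, 74.4 and 68.1 CPM in WT. With both genes summed, the 6-month levels were 93.6, 95.9 and 83.1 CPM in 5xFAD and 69.5, 68.0 and 88.5 CPM in WT. The log2 fold change of the sum was 0.27 (SE 0.115, edgeR adjusted p = 0.171), of the opposite sign to Atp5g2 alone. At 1 month the sum gave -0.66 (edgeR adjusted p = 0.000351). Reads of the gene and of its copy cannot be told apart over the shared stretch.

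**Figure D4:**
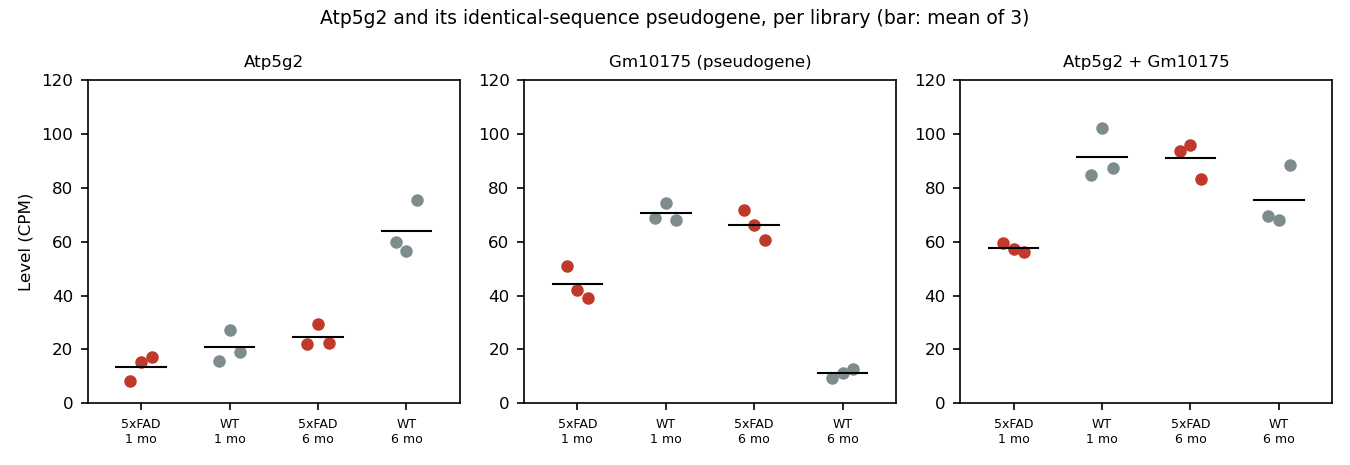
Level (CPM, from 0) of Atp5g2, of its pseudogene Gm10175 and of both summed in every library; bars are means of 3, 5xFAD in red and WT in grey. Atp5g2 is high and Gm10175 low in the 3 WT libraries of 6 months alone, while the sum there lies between the other groups.

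Other members share sequence with further genes. Of all members, 28 shared at least 10% of their 50-base words with another gene, and 13 did so with one at 1 CPM or more, some of them overlapping neighbours. Adding the counts of annotated pseudogene copies, without overlapping neighbours, gave 64 members lower at 1 month and 15 higher and 0 lower at 6 months. Ndufb4, an accessory subunit of complex I, had a log2 fold change of -0.93 at 1 month alone and -0.60 with its copy Ndufb4c.

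With age, 5xFAD and WT retina moved in opposite directions. The 2 age comparisons share libraries with the genotype comparisons above and are not independent of them. In 5xFAD retina, 62 of 81 members were higher at 6 than at 1 month and 0 lower by edgeR, against 10.8% of all genes higher and 12.4% lower. At an unadjusted p under 0.05, 66 were higher and 0 lower, against 5609 of all 16233 genes in either direction. DESeq2 also called 0 members lower, against 2298 of all genes. By complex, 29 of 38 members rose in complex I, 3 of 4 in II, 6 of 8 in III, 11 of 14 in IV and 13 of 17 in V. The median was 0.53, against 0.03 for all genes. In the shortest length group, which holds 76 of the 81 members, 21.7% of all genes were called higher, with a median of 0.33. Atp5k stood at 68.1, 62.7 and 72.3 CPM at 6 months, against 33.1, 31.1 and 24.4 CPM at 1 month (log2 fold change 1.20 ± 0.138, edgeR adjusted p = 3.43e-06). Ndufa1 rose by 1.01, Ndufb11 by 0.92, Uqcr10 by 0.89, Cox5a by 0.89 and Cox7c by 0.84. Ndufb3 (0.90), Uqcrh (0.77), Cox7a2 (0.82), Atp5j (0.74), Atp5g3 (0.63) and Atp5h (0.63) rose as well. In complex II, Sdhc, Sdhb and Sdhd rose by 0.59, 0.52 and 0.47, and Sdha gave 0.07. With the length and GC trend taken out, 25 were higher and 0 lower, against 10.7% of all genes higher and 5.06% lower. Cox7a1 (2.20, SE 0.704) and Atp5s (1.29, SE 0.266), both among the lowest members per length, had the largest fitted values. Without the rRNA-rich libraries, which leaves 1 library of 5xFAD at 6 months, the members' median was 0.49, against 0 for all genes. The cone list summed to 1450 to 1600 CPM at 6 months and 1060 to 1250 CPM at 1 month, with 3 of 6 higher. The pigment epithelium list summed to 49.9 to 84.7 CPM at 6 months and 24.9 to 35.6 CPM at 1 month, with 3 of 6 tested genes higher. The endothelium list summed to 76.7 to 90.3 CPM at 6 months and 190 to 205 CPM at 1 month, with 3 of 4 lower. The bipolar cell list summed to 944 to 972 CPM at 6 months and 1170 to 1240 CPM at 1 month, with 2 of 5 lower. In the amacrine cell list 1 of 5 was lower, and so was the 1 tested lens gene. The Muller glia and ganglion cell lists (5 genes each) had 1 higher and 1 lower each. The blood list (3 genes) summed to 14.0 to 19.9 CPM at 6 months and 56.5 to 77.7 CPM at 1 month, with 3 of 3 lower. Of the 9 rod markers 1 was higher and 3 lower. Their part in the result was not tested.

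In WT retina, 18 members were lower and 1 higher at 6 than at 1 month, against 4.49% of all genes lower and 6.01% higher. The median was -0.27, against -0.01 for all genes. In the shortest length group 6.3% of all genes were called lower, with a median of -0.14. In 25 members the 6-month libraries all lay below the 1-month libraries and in 1 above (15.1% and 15.6% of all genes). Of the 18, 6 were of complex I, 2 of III, 4 of IV and 6 of V; complex II had none by edgeR, with 1 lower at an unadjusted p under 0.05. Ndufa4 stood at 127, 142 and 159 CPM at 6 months, against 233, 257 and 240 CPM at 1 month (log2 fold change -0.77 ± 0.0935, edgeR adjusted p = 1.86e-05). Atp5mpl fell by 0.93, Atp5g3 by 0.73, Uqcrfs1 by 0.63, Cox4i1 by 0.55 and Uqcrc1 by 0.48. Ndufa3 (-0.78), Ndufa7 (-0.50), Cox6c (-0.37), Cox7a2 (-0.42), Cox5a (-0.44), Atp5e (-0.67) and Atp5j (-0.47) fell as well. The 1 higher member was again Atp5g2 (1.63), whose sum with Gm10175 gave -0.28. With the length and GC trend taken out, 14 were lower and 2 higher, against 7.76% and 4.58% of all genes. The count of 18 was 29 without the 6-month replicate 3, 7 and 8 without the 6-month replicates 1 and 2, and 10 and 11 without the 1-month replicates 2 and 3. Over all genes, 729 were lower with all libraries, and 751, 279, 246, 340 and 452 in the same order. The Muller glia list summed to 2930 to 3220 CPM at 6 months and 2500 to 2670 CPM at 1 month, with 3 of 5 higher. The cone list summed to 1120 to 1210 CPM at 6 months and 1290 to 1540 CPM at 1 month, with 2 of 6 lower. The blood list summed to 7.09 to 11.8 CPM at 6 months and 42.7 to 107 CPM at 1 month, with 2 of 3 lower. Of the 9 rod markers 3 were higher and 2 lower, and of the 5 amacrine cell markers 1 was lower. Neither their part nor that of the low pseudogene share of the 6-month libraries was tested.

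The genotype difference itself changed with age. In the interaction of genotype and age, 62 of 81 members had a higher log2 fold change at 6 than at 1 month and 0 a lower one by edgeR, against 11.7% and 13.3% of all genes. At an unadjusted p under 0.05, 71 were higher and 1 lower, against 5964 of all 16233 genes in either direction. The 1 lower was Atp5g2 (-0.77), whose sum with Gm10175 gave 0.93 (edgeR adjusted p = 0.000207). DESeq2 called 0 members lower, against 2418 of all genes. The members' median difference was 0.78, and that of all genes was 0.06. In the shortest length group 22% of all genes were called higher, with a median of 0.47. With the length and GC trend taken out, 32 were higher and 1, of complex V, was lower, against 13.4% and 6.47% of all genes. The members' median was then 0.37, and that of all genes 0.14. By complex these 32 were 11 of I, 1 of II, 3 of III, 5 of IV and 12 of V.

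Genes around the chain were read from lists. Of cytochrome c (Cycs) and its docking partner in complex III, cytochrome c1 (Cyc1), both fell at 1 month in 5xFAD, by 0.44 each. Of 46 tested assembly factors, 10 were lower and 2 higher at 1 month, with a median of -0.27, against 8.91% of all genes lower and 10.7% higher. With the length and GC trend taken out, 3 were lower and 0 higher, with a median of -0.13, against 6.87% of all genes lower. Cox20 (-0.88) and Coa3 (-0.80), which help build complex IV, Uqcc2 (-0.70), for complex III, and Sdhaf1 (-0.70), for complex II, had the smallest p. Of 17 genes of the tricarboxylic acid cycle and pyruvate dehydrogenase, 5 were lower and 0 higher at 1 month by edgeR. Over all genes, 8.91% were lower and 10.7% higher. Suclg1 fell most clearly (-0.62, edgeR adjusted p = 0.000919), and the list's median was -0.17. With the trend taken out, 1 of the 17 was lower and 0 higher, against 6.87% and 4.63% of all genes. Of 14 regulators of respiratory gene transcription and of mitochondrial DNA, 0 were called at 1 month by edgeR, with 3 higher and 3 lower at an unadjusted p under 0.05. Nrf1, Gabpa and Tfam gave -0.08, 0.01 and -0.41, and Ppargc1a gave 0.67 (edgeR adjusted p = 0.113). The list's median transcript length was 3364 nt, and its median log2 fold change -0.15. With the length and GC trend taken out, that median was -0.16. Then 1 regulator was lower and 0 higher, against 6.87% and 4.63% of all genes. In that fit at 6 months, 2 regulators were higher and 1 lower, against 7.21% and 2.35% of all genes. At 6 months, with the trend left in, 1 of the 46 assembly factors was higher (Sdhaf4, 0.81) and 1 of the 14 regulators lower (Ppargc1b, -0.47). Over all genes, 2.48% were called higher and 3.89% lower at 6 months. Neither Cycs nor Cyc1 was called by edgeR then, although Cyc1 was higher and Cycs lower at an unadjusted p under 0.05. Of the 17 cycle genes 0 were called at 6 months by edgeR, with 2 higher and 0 lower at an unadjusted p under 0.05. Of the 13 genes in mitochondrial DNA, 7 were lower and 0 higher at 1 month in 5xFAD, against 8.91% and 10.7% of all genes. Among the 7 were mt-Co1 (-0.80) and mt-Cytb (-0.72). This list's median was -0.62, and -0.60 with the trend taken out. At 6 months mt-Co2, mt-Co3 and mt-Atp6 were called lower and mt-Nd6 higher. The first 3 have nuclear copies holding 99.5 to 99.9% of their 50-base words, and mt-Co3 summed with its copies stood at 8740, 8250 and 8330 CPM in 5xFAD and 6330, 6440 and 7780 CPM in WT, the opposite order to mt-Co3 alone. mt-Nd6 lies on the other strand from its neighbours, and the kit did not mark strand.

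Expected counts were also deposited per transcript. Of 263 tested member transcripts, 17 were lower and 0 higher in 5xFAD at 1 month by edgeR, against 0.922% and 1.6% of 45326 transcripts. DESeq2 called 67 lower and 2 higher. Its shares over all transcripts, here and at 6 months, are not given. The smallest p values were those of the coding forms Cox4i1-201 (-0.67), Uqcr10-201 (-0.75) and Atp5g3-201 (-0.84). Atp5s-204 was listed at 0 in all 3 5xFAD libraries and at 2.59, 4.43 and 7.33 CPM in WT. At 6 months 2 transcripts, Atp5mpl-201 (0.92) among them, were higher and 0 lower by edgeR, against 0.165% and 0.322% of all transcripts, and DESeq2 called 24 higher and 3 lower. At 1 month the 17 became 3, 4 and 1 without 5xFAD replicates 1, 2 and 3, and 7, 2 and 15 without WT replicates 1, 2 and 3. At 6 months the 2 became 0, 0 and 1 without 5xFAD replicates 1, 2 and 3, and 0, 0 and 7 without WT replicates 1, 2 and 3. Shares over all transcripts without a library are not given.

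Retained-intron transcripts were annotated for 47 members, of which 42 had enough counts to test the share of a gene's counts they held. None was called at either age by edgeR or by limma on the log ratio, with 7 at an unadjusted p under 0.05 at 1 month and 5 at 6 months in edgeR. Over all 4769 genes tested, 1.51% had a higher and 1.38% a lower share at 1 month, and 0.0839% and 0.105% at 6 months. Over all members, the retained-intron share at 1 month was 5.52, 4.85 and 5.71% in 5xFAD libraries and 5.01, 5.33 and 4.52% in WT libraries. At 6 months it was 4.37, 3.23 and 4.91% in 5xFAD libraries and 4.76, 4.34 and 4.12% in WT libraries. The groups overlapped at both ages. By gene, the ratio of retained-intron to other counts was compared between 5xFAD and WT. The log2 ratio of these count ratios had a median of 0.41 at 1 month, with 28 of 42 above 0. At 6 months it had a median of -0.68, with 8 of 42 above 0. The matching values over all 4769 genes are not given here, so these are not read as particular to the members. Retained-intron transcripts were on average longer than the other transcripts in 20 of the 42. The smallest p at 1 month was that of Cox6c, whose share was 21.4 ± 3.47% in 5xFAD and 10.4 ± 1.84% in WT. The log2 ratio of its count ratios was 1.24 ± 0.319 (edgeR adjusted p = 0.0641). Its retained-intron transcript of 3038 nt stood at 20.1, 17.4 and 24.5 CPM in 5xFAD and 12.8, 19.6 and 15.7 CPM in WT. Its coding transcript of 503 nt stood at 81.8, 71.6 and 70.3 CPM in 5xFAD and 132, 131 and 133 CPM in WT. With a minimum of 50 counts, 4 members passed at 1 month, all with a higher share in 5xFAD: Atp5f1, Atp5l, Cox6c and Ndufb5. The part of all genes that passed at that minimum is not given here.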

How the data were processed

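Whole-retina RNA was sequenced from poly-A selected RNA with a kit that does not mark strand, per the labels' protocols. The authors deposited expected counts, unnormalised, for genes and for transcripts. Tools listed in the submitters' processing notes, without their roles, were RSEM 1.3.3, STAR 2.7.1a, DESeq2 1.32.0 and Trim Galore 0.6.6, with the build GRCm38.p6; the annotation is not given in the sources used here. Column totals ran from 10928031 to 19552537, and replicates differed by more than sampling noise (chi-square per degree of freedom 4.05 to 26.7).

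Expected counts were rounded and fitted in R 4.3.3 with edgeR 4.0.16 (quasi-likelihood, TMM scaling, filterByExpr, robust, all 12 libraries, 8 residual degrees of freedom), with Benjamini-Hochberg adjustment over all 16233 genes or 45326 transcripts and a threshold of 0.05. DESeq2 1.42.0 and limma 3.58.1 gave alternatives. Names, lengths and coordinates came from GENCODE M21 (55227 of 55487 gene identifiers and 141469 of 142699 transcripts matched), promoters from RefSeq. The trend removal fitted splines with 4 degrees of freedom per library on log length and GC content. Retained-intron shares were tested as ratios on paired columns, with a mean of at least 10 counts on each side. The edgeR fits of genes, transcripts and retained-intron shares, and the gene fit with a length trend added and taken out, were tested on simulated data. The changes were put in 5xFAD at 1 month, and the other fits were not tested. The gene fit recovered 44 of 100 genes changed 1.5-fold and 93 of 100 changed 2-fold, with 8 false calls. With a length trend added and kept, these were 43, 94 and 355. With that trend taken out, they were 30, 98 and 6.

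Named were, per complex and comparison, up to 4 called members with the smallest p in each direction, the core subunits, isoform sets, the highest and lowest per-length levels, members outside the filter or called against their complex, and up to 4 genes of each list. Other genes named were chosen after their values were seen. A gene that the rule names is not reported here by name; it stayed in all fits and counts. The members and lists were chosen with earlier results of these data known. Alternatives were other scalings, tools and filters, a replicate block, trend removal, leaving out libraries, and, added after seeing the data, adding sequence copies.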

Additional observations from a re-analysis of the deposited data

Results flagged for a closer look

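Genotype effects that differed between the 2 ages, by the test of the difference itself, met the criterion for a closer look. The interaction was called for 62 of 81 members, all with a higher 5xFAD over WT difference at 6 than at 1 month. Over all genes, 11.7% were called higher and 13.3% lower. Of the 62, 45 were lower at 1 month and not called at 6 months. In 13 the call was lower at 1 month and higher at 6 months. A further 1 was called at 6 months alone, and 3 were called at neither age. In complex I, 27 members were called. Among them were Ndufa4 (log2 difference 1.28, counted here by its symbol), Ndufb9 (1.05), Ndufa1 (1.45) and Ndufv2 (1.01). In complex II, 2 members were called, the membrane anchors Sdhc (0.86) and Sdhd (0.58). In complex III, 7 were called, with Uqcrfs1 (1.11), Uqcr10 (0.90), Uqcrc1 (0.66) and Uqcrh (0.73) leading. In complex IV, 12 were called, with Cox4i1 (1.12), Cox7a2 (1.24), Cox6c (1.05) and Cox5a (1.33) leading. In complex V, 14 were called, with Atp5g3 (1.36), Atp5mpl (1.64), Atp5j (1.21) and Atp5e (1.39) leading. The share of counts in short-transcript genes moved in the same way, at 21.1% in 5xFAD and 28.3% in WT at 1 month and 29.1% in 5xFAD and 26.1% in WT at 6 months. With the length and GC trend taken out, 32 members were called higher and 1, of complex V, lower, against 13.4% of all genes higher and 6.47% lower. Groups of 3 libraries are too small for the outlier criterion.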

How the results depend on the processing

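Of 4270 values of single genes under alternatives, 3622 kept direction and call, 641 no longer passed and 7 turned direction. With the length and GC trend taken out, the counts were 18 lower at 1 month, 2 lower at 6 months, 2 higher with age in WT, 25 higher with age in 5xFAD, and 32 higher and 1 lower in the interaction. Over all genes, same-numbered libraries did not deviate together (correlations -0.0852 to 0.0623), and they were treated as unpaired. Whether the numbers mark a shared origin or run cannot be told from these correlations. A replicate block alone gave 60 lower at 1 month (1275 of all genes) and 13 higher at 6 months (317 of all genes). With the trend taken out as well, it gave 18, 2, 2, 24, 31 and 1 for the same 6 counts. Over all genes those 6 were 1057, 347, 693, 1620, 2031 and 1015. The block left 4 transcripts lower at 1 month and 0 higher at 6 months. A filter of 1 count gave 2 lower at 6 months and 1 lower in the interaction, against 984 and 2405 of all 25667 genes. Without the 3 rRNA-rich libraries, which leaves 1 library of 5xFAD at 6 months, assumed to vary like the other groups, 6 were higher at 6 months and 39 with age in 5xFAD. With sequence copies added, 0 were lower at 6 months and 0 higher with age in WT. The DESeq2 Wald test gave 67 transcripts lower and 2 higher at 1 month, and 24 higher and 3 lower at 6 months. Its shares over all transcripts are not given. With 50 counts, 4 retained-intron shares of members passed at 1 month, and the part of all genes that passed is not given here. Leaving out 1 library at a time gave 45 to 60 lower at 1 month, 6 to 27 higher at 6 months, 7 to 29 lower with age in WT, 46 to 60 higher with age in 5xFAD, and 48 to 68 higher and 0 to 1 lower in the interaction. In the fits at these ends, 738 and 1146 of all genes were lower at 1 month. At 6 months 117 and 105 (both with 6 members) and 522 were higher. With age in WT 279 and 751 were lower. With age in 5xFAD 1231 and 1366 (both with 46 members) and 1701 were higher. In the interaction 1094 and 1912 were higher. For transcripts, leaving out 1 library gave 1 to 15 lower at 1 month and 0 to 7 higher at 6 months, and 0 retained-intron shares. Shares over all transcripts in those fits are not given. The values that turned were Ndufa6 at 1 month (0.00063) and in the interaction (-0.05085 without and -0.05258 with the block) and Cox8a in the interaction (-0.1084 without and -0.1111 with the block), all from taking out the trend, and Atp5g2 with its copy (0.27 at 6 months, -0.28 with age in WT). The cause of the other shifts was not tested. With 3 libraries a group, an exact permutation test of a single value cannot go below 0.1, and low members such as Cox7a1 and Ndufa4l2 are limited by counts of a few CPM.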

Other observations

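Genes with the prefixes of the chain but of another annotated type numbered 13, and 2 of them had enough counts to test. Ndufb1-ps, annotated as a bidirectional-promoter long non-coding RNA, stood at 23.0, 20.2 and 25.8 CPM in 5xFAD and 44.1, 41.7 and 33.5 CPM in WT at 1 month (log2 fold change -0.79, edgeR adjusted p = 0.00156). At 6 months it stood at 43.8, 59.8 and 64.0 CPM in 5xFAD and 40.2, 34.2 and 47.2 CPM in WT (0.47, edgeR adjusted p = 0.0806). Ndufb4c, a processed pseudogene, gave -0.44 at 1 month (edgeR adjusted p = 0.0865).

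At 6 months the mitochondrially encoded genes mt-Co2, mt-Co3 and mt-Atp6 showed the same kind of split as Atp5g2. The subunit gene mt-Co3 stood at 757, 617 and 1110 CPM in 5xFAD and 6110, 6210 and 7420 CPM in WT at 6 months. Its nuclear copy Gm28437, which holds 99.9% of its 50-base words, stood at 7980, 7630 and 7220 CPM in 5xFAD and 215, 227 and 361 CPM in WT. For mt-Atp6 and its copy Gm10925 (99.5% of words) the gene stood at 611, 227 and 477 CPM in 5xFAD and 3080, 2860 and 4420 CPM in WT, while the sums, 6710, 6380 and 7120 CPM in 5xFAD and 6540, 6720 and 8130 CPM in WT, overlapped. What set the WT libraries of 6 months apart was not tested.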
